A study of Pantherophis guttatus with 6 samples.

Results

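The collagen chains of the corn snake (*Pantherophis guttatus*) are the genes named COL, a number, A and a number in the annotation of its genome, with the copies named -like included. This naming rule found 63 of the 25731 genes in the count table, on 24 scaffolds: 37 chains named without -like and 26 -like copies. The skin was dorsal skin at embryonic day 40, taken from 3 embryos homozygous for the hypomelanistic variant and from 3 wild-type embryos. By the account of the study, the embryos shared a clutch and heterozygous parents, and were genotyped at SNPs beside the mapped interval. Hypomelanistic snakes carry less melanin in the skin. Each library was made from polyadenylated RNA of 1 embryo. The labels give neither sex nor batch. In the study's account, sex was the main factor that separated these samples.

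Collagens are proteins of the extracellular matrix in which α chains wind into a triple helix. In vertebrate dermis, fibroblasts secrete fibrils of collagens I, III and V, which fibril-associated collagens decorate and link to their surroundings. Beneath the epidermis, networks of collagen IV form the basement membrane, collagen XVII spans the membrane of basal keratinocytes and collagen VII forms the fibrils that anchor the basement membrane to the dermis. Collagens II, IX, X and XI are known from cartilage.

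Total counts per library ranged from 29958657 to 38541392. Genes of ribosomal RNA took 10.2%, 11.7% and 13.5% of the counts of hypomelanistic embryos 1, 2 and 3, against 7.39%, 7.50% and 8.83% for wild-type embryos 1, 2 and 3. *TYR*, the tyrosinase gene that the study places in the mapped interval, had 4.78, 5.13 and 5.01 CPM in hypomelanistic embryos, against 42.6, 34.5 and 34.5 CPM in wild-type embryos, which separates the genotypes as the labels give them. CPM are counts relative to a library size scaled by TMM, a factor that aligns the bulk of the genes between libraries.

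Collagen transcripts made up 11.4%, 12.8% and 10.5% of all counts of hypomelanistic embryos 1, 2 and 3, against 12.8%, 13.3% and 12.6% for wild-type embryos 1, 2 and 3. The means were 11.6% ± 1.13 and 12.9% ± 0.362 (SD, n = 3 each), and the difference of −1.37 percentage points was close to the SD of the hypomelanistic embryos. It was −0.858 without hypomelanistic 3 and −0.851 on TMM-scaled library sizes. Per kilobase it was −0.603, on lower group means of 4.58% in hypomelanistic and 5.18% in wild-type embryos. Hypomelanistic 1 and 3 lay below every wild-type embryo, whereas hypomelanistic 2 exceeded wild-type 3, so the groups overlapped. As a share of the counts outside ribosomal RNA, collagens took 12.7%, 14.5% and 12.2% in hypomelanistic embryos, against 13.9%, 14.4% and 13.9% in wild-type embryos. On this scale hypomelanistic 2 had the highest share of the 6, and the difference was −0.937 percentage points. No test was made of this share, which is a sum over the members. In bulk skin fewer cells of a type and less RNA per cell cannot be told apart.

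**Figure D1:**
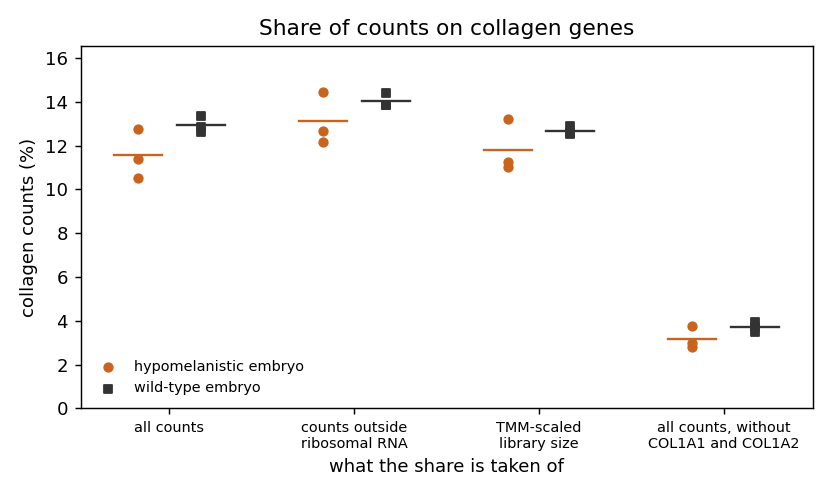
Share of counts on the 63 collagen genes in each library (points; lines are group means), in percent, for 4 ways of taking the share. Hypomelanistic 2, at 12.8% of all counts, lies among the wild-type embryos, while hypomelanistic 1 and 3 lie below them at 11.4% and 10.5%.

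Most collagen counts fell on 3 chains of the dermal fibrils. *COL1A1*, *COL1A2* and *COL3A1* together held 85.3% to 86.9% of the collagen counts of a library. Per transcript length (TPM, which sums to the same total in each library, computed from the counts and the exon length in the table), *COL1A2* ranked 1, *COL1A1* 3 and *COL3A1* 10 among all genes. They were the only collagens among the 100 genes with the highest TPM. *COL1A2* averaged 17377 ± 2628 TPM in hypomelanistic and 20299 ± 1844 TPM in wild-type embryos, and *COL1A1* 17118 ± 1270 and 18139 ± 380.5 TPM (SD, n = 3 each), so the means of these 2 chains lay within the spread in hypomelanistic embryos, while in wild-type embryos every *COL1A2* value was above every *COL1A1* value. *COL3A1* followed with 6576 ± 1896 TPM in hypomelanistic and 8012 ± 817 TPM in wild-type embryos. A gap separated them from *COL14A1*, which came next with 855 ± 119 and 1086 ± 107 TPM. *COL5A2*, *COL17A1*, *COL5A1* and *COL16A1*, with means over the 6 libraries of 637, 611, 598 and 557 TPM, followed, and neighbours in this order did not differ beyond their spread. *COL12A1* averaged 393 TPM, and *COL11A1*, *COL7A1*, *COL18A1* and *COL4A5* 180.4, 171, 147 and 129.9 TPM.

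**Figure D2:**
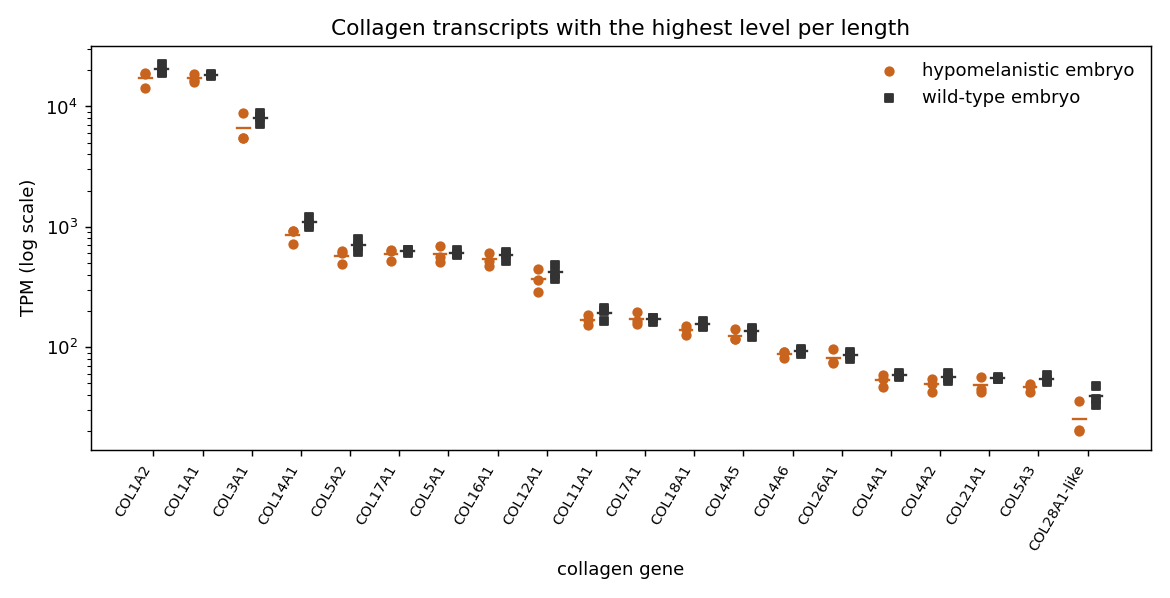
TPM on a log scale of the 20 collagen genes with the highest level, by embryo (points) with group means (lines), hypomelanistic left of wild-type for each gene. The 3 leading chains lie between 5449 and 22420 TPM, and no other collagen exceeds 1203 TPM in any library.

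No collagen chain passed the edgeR test between the genotypes. Of the 63 genes, 48 had enough counts to be tested (36 chains and 12 -like copies). The other 15 were *COL10A1*, which had more than 10 counts in a single library, and 14 -like copies with at most 19 counts in any library. With edgeR and Benjamini-Hochberg adjustment over all 17025 tested genes, 0 of the 48 collagens had an adjusted p under 0.05, against 0.0235% of all tested genes (4 genes). With DESeq2, 1 collagen passed (*COL19A1*), where 0.475% of all genes passed. At an unadjusted edgeR p under 0.05 there were 6 collagens, 12.5% of those tested, against 5.63% of all tested genes. These 6 were *COL19A1*, *COL22A1*, *COL14A1*, *COL9A1*, *COL9A3* and *COL18A1-like* (LOC117665040).

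Log2 fold changes (hypomelanistic over wild-type) were small for most collagens. They lay within 0.25 of 0 for 35 of the 48, and the median was −0.09, beside 0.00 over all tested genes. Fold changes below 0 were found for 39 collagens and above 0 for 9, which is 81.25% below 0, beside 49.0% of all tested genes. This split rested partly on single embryos, since it was 33 of 48 (68.75%) without hypomelanistic 3 and 32 of 48 (66.7%) without wild-type 3. Each side of the split over all libraries includes both copies of a near-identical *COL6A6-like* pair. The 2 genotypes did not overlap for 3 collagens, all lower in hypomelanistic embryos (*COL19A1*, *COL14A1* and *COL18A1-like*), which is 6.25% of the collagens beside 6.39% of all tested genes. No collagen was higher in every hypomelanistic embryo, beside 5.77% of all tested genes. The SD between embryos of a genotype had a median of 0.195 on the log2 scale over the tested collagens and 0.163 over all tested genes. It was smallest for *COL4A6* (0.0425), *COL18A1* (0.0714) and *COL17A1* (0.0759) and largest for *COL11A2* (1.73), *COL9A1* (1.71) and *COL9A3* (1.41).

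Markers of fibroblasts, the main source of dermal collagen, varied alongside. Of 11 measured, all were tested, 2 had a fold change above 0 and 9 below, with a median of −0.23 and none called by edgeR. In every hypomelanistic embryo 1 was lower and 0 higher, beside 6.39% and 5.77% of all tested genes. This was *DPT* (249 to 341 against 364 to 388 CPM, edgeR adjusted p = 0.828). The 11 markers summed to 9270, 11346 and 9562 CPM in hypomelanistic embryos, against 10640, 11465 and 11305 CPM in wild-type embryos. *VIM*, with a fold change of 0.09 ± 0.0908, held the largest part of these sums (3283 to 3510 against 3060 to 3473 CPM). In the sums, hypomelanistic 2 lay among the wild-type embryos. On the same TMM scale its collagen share was 13.2%, above the 12.6%, 12.9% and 12.6% of wild-type embryos 1, 2 and 3. The part of these markers and of the ribosomal RNA share in the collagen levels was not tested.

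**Figure D3:**
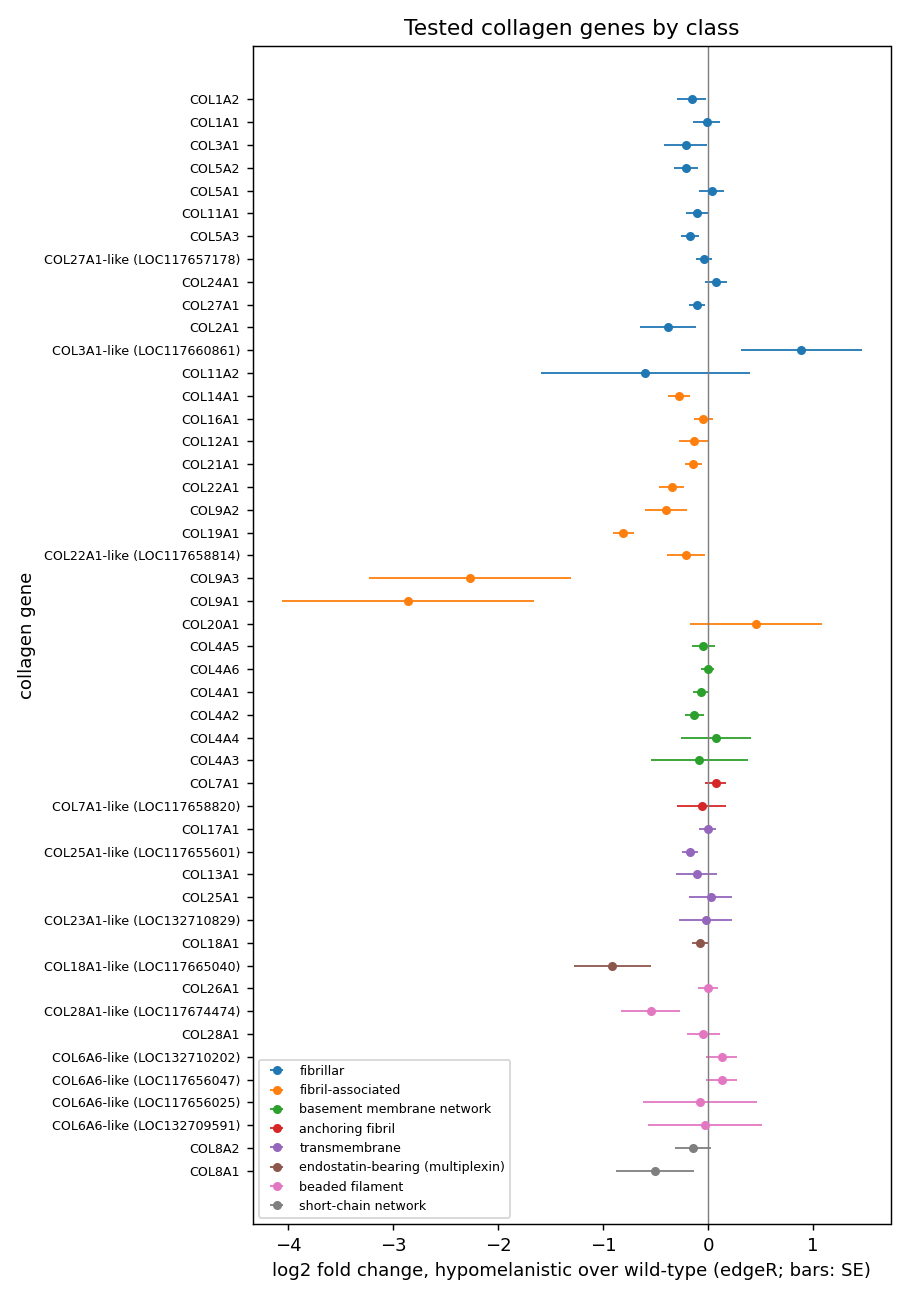
Log2 fold change, hypomelanistic over wild-type, of the 48 tested collagen genes, with bars for the SE, coloured by class and ordered by TPM within each class. Of the 48 points, 26 lie within 1 SE of 0, 21 lie further below 0 and 1 further above, *COL19A1* (−0.81 ± 0.1003) stands clear of 0, and *COL9A1*, *COL9A3* and *COL11A2* have the widest bars.

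*COL19A1* had the smallest p of all collagens and was lower in every hypomelanistic embryo. It encodes a fibril-associated collagen, found in mammals in basement membrane zones. Its counts were 506, 431 and 582 in hypomelanistic and 863, 876 and 800 in wild-type libraries. In CPM, the hypomelanistic embryos had 14.7, 13.6 and 15.8 and the wild-type embryos 24.9, 28.3 and 23.9. The embryos of each genotype lay close together, with a gap between the genotypes that was wider than the spread within either. The means were 14.7 ± 1.10 and 25.7 ± 2.29 CPM (SD, n = 3 each). This gave a log2 fold change of −0.81 ± 0.1003 (SE). Its adjusted p in edgeR was 0.116, outside the threshold. By unadjusted p (7.41e-05) it was the 10th of the 17025 tested genes. DESeq2 gave −0.80 ± 0.125 and an adjusted p of 3.25e-07 for the same libraries. Over 12 alternative analyses, the fold change stayed between −0.86 and −0.73, whereas the adjusted p ranged from 3.25e-07 with DESeq2 to 0.624, and DESeq2 was the only one to call the gene. The gene lies on scaffold NW_026844025.1 of the CU assembly, on the minus strand from position 20604758 to 20783954, and no annotated gene overlaps it. Its 3′ end faces that of *COL9A1*, with 3335 bases between them.

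**Figure D4:**
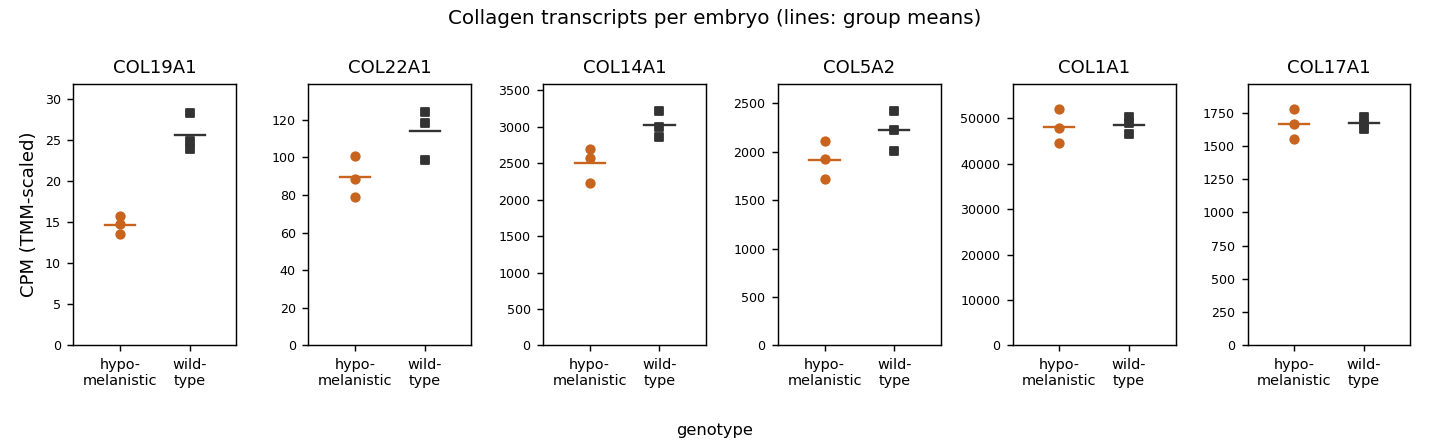
CPM of 6 collagen genes in each embryo (points) with group means (lines), on axes that start at 0. The genotypes are apart for *COL19A1* and *COL14A1*, and overlap for *COL22A1*, *COL5A2*, *COL1A1* and *COL17A1*.

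For the other fibril-associated collagens of skin, edgeR found no difference past the threshold. *COL14A1*, whose product binds collagen I fibrils and regulates their diameter, had 2569, 2698 and 2226 CPM in hypomelanistic embryos, against 2855, 3217 and 2999 CPM in wild-type embryos. Every hypomelanistic embryo was lower, but the gap between hypomelanistic 2 and wild-type 1 was smaller than the SD of either genotype. Its log2 fold change of −0.28 ± 0.104 (SE) did not pass (edgeR adjusted p = 0.828, and 0.588 to 0.986 over the alternatives). *COL22A1*, a collagen of tissue junctions such as that of muscle and tendon, had 79.0, 88.5 and 101 CPM in hypomelanistic embryos, against 124, 98.7 and 119 CPM in wild-type embryos. Hypomelanistic 3 exceeded wild-type 2, and the fold change was −0.35 ± 0.118 (edgeR adjusted p = 0.828). Skeletal muscle markers varied widely within both genotypes, and their part in the *COL22A1* level was not tested. Of 11 tested, 4 had a fold change above 0 and 7 below (median −0.14), and their sum was 908, 3457 and 2388 CPM in hypomelanistic and 2542, 3906 and 1101 CPM in wild-type embryos.

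*COL12A1*, a relative of *COL14A1* on the fibrils of dermis and tendon, had 2610.2, 2226 and 1889 CPM in hypomelanistic and 2239, 2735 and 2409.6 CPM in wild-type embryos (−0.13 ± 0.139). The highest embryo of each genotype lay above the lowest of the other. *COL16A1*, known in human skin from the junction of dermis and epidermis, had 1651, 1501 and 1437 CPM in hypomelanistic and 1462, 1618 and 1655 CPM in wild-type embryos (−0.04 ± 0.0915). For *COL21A1*, also fibril-associated, the values were 101.4, 85.1 and 85.3 CPM in hypomelanistic embryos, against 101.7, 98.0 and 100.1 CPM in wild-type embryos. Hypomelanistic 1 alone reached the wild-type levels. *COL20A1* had at most 25 counts in any library, which is too few to compare. Of the 11 tested fibril-associated genes, 10 had fold changes below 0, with a median of −0.28. Among the 11 are the cartilage chains *COL9A1*, *COL9A2* and *COL9A3* (−2.86, −0.40 and −2.27), all below that median. Without wild-type 2, the fold changes of *COL9A1* and *COL9A3* were −0.11 and −0.42.

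The fibril-forming chains of the dermis showed no difference beyond the spread between embryos. *COL1A1* took 4.50%, 5.03% and 4.59% of the counts of hypomelanistic embryos, against 4.99%, 4.82% and 5.06% for wild-type embryos. The values interleaved, and in CPM the log2 fold change was −0.01 ± 0.128 (SE; edgeR adjusted p = 0.992). *COL1A2*, the partner chain in collagen I, took 3.91%, 3.97% and 3.15% in hypomelanistic and 4.14%, 4.59% and 4.09% in wild-type libraries. All hypomelanistic shares were the lower ones here, but on the TMM scale the genotypes overlapped (38605, 41095 and 32888 CPM in hypomelanistic, against 40498, 44327 and 40604 CPM in wild-type embryos), with a fold change of −0.16 ± 0.137 (edgeR adjusted p = 0.851). *COL3A1*, the chain of the thinner fibrils of young dermis, took 1.31%, 2.09% and 1.37% in hypomelanistic and 2.02%, 2.04% and 1.72% in wild-type libraries. Hypomelanistic 2 had the highest share of the 6 and the other 2 hypomelanistic embryos the lowest, with a fold change of −0.21 ± 0.205 (edgeR adjusted p = 0.865). It was −0.07 without hypomelanistic 1 and −0.47 without hypomelanistic 2 (edgeR adjusted p = 0.961 and 0.689).

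Collagen V, which nucleates collagen I fibrils, is built from *COL5A1*, *COL5A2* and *COL5A3*. *COL5A2* had 1925, 2110.4 and 1719 CPM in hypomelanistic embryos, against 2013, 2424 and 2225 CPM in wild-type embryos (−0.21 ± 0.112, edgeR adjusted p = 0.828). *COL5A1* had 2132, 2782 and 2176 CPM in hypomelanistic embryos, against 2303, 2341 and 2277 CPM in wild-type embryos (0.03 ± 0.119). *COL5A3* had 170.9, 175 and 163 CPM in hypomelanistic embryos, against 212, 172 and 190.1 CPM in wild-type embryos (−0.17 ± 0.0859). In *COL5A1* the most distant value was the high one of hypomelanistic 2, and for all 3 chains the genotypes overlapped. *COL3A1* and *COL5A2* lie tail to tail on scaffold NW_026844021.1, 13835 bases apart. *COL11A1*, the collagen XI chain that also occurs outside cartilage, had 651, 563 and 652 CPM in hypomelanistic and 592, 716 and 704 CPM in wild-type embryos (−0.11 ± 0.103). *COL24A1* and *COL27A1*, fibrillar collagens known from bone and cartilage, had fold changes of 0.07 ± 0.106 and −0.11 ± 0.0764. Of the 13 tested fibrillar genes, 3 had fold changes above 0 and 10 below, with a median of −0.11.

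The balance of partner chains was compared as the ratio of their counts per kilobase, with an exact two-sided permutation test over the 20 assignments of embryos to genotypes. The smallest p that 3 against 3 embryos can reach is 0.1, and 4 pairs were compared. *COL1A1* to *COL1A2* was 0.889, 0.976 and 1.12 in hypomelanistic and 0.930, 0.810 and 0.954 in wild-type embryos (exact p = 0.4, adjusted 0.533). *COL5A1* to *COL5A2* was 0.925, 1.10 and 1.057 in hypomelanistic and 0.956, 0.807 and 0.855 in wild-type embryos (exact p = 0.2, adjusted 0.533). In both pairs hypomelanistic 2 and 3 lay above every wild-type embryo and hypomelanistic 1 did not. *COL4A1* to *COL4A2* was 1.09, 1.07 and 1.09 in hypomelanistic and 1.09, 0.998 and 1.032 in wild-type embryos (exact p = 0.3, adjusted 0.533). *COL4A5* to *COL4A6* was 1.27, 1.55 and 1.43 in hypomelanistic and 1.38, 1.44 and 1.55 in wild-type embryos (exact p = 0.6, adjusted 0.6). The ratios of the last 2 pairs overlapped between the genotypes as well.

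Collagens at the border of epidermis and dermis included some of the steadiest. *COL17A1*, the transmembrane collagen of hemidesmosomes in basal keratinocytes, had 1665, 1779 and 1550.3 CPM in hypomelanistic and 1665, 1626 and 1721 CPM in wild-type embryos, with a log2 fold change of −0.01 ± 0.0835 (edgeR adjusted p = 0.996). *COL7A1*, the chain of anchoring fibrils, had 845, 1055 and 885 CPM in hypomelanistic and 859, 862 and 922 CPM in wild-type embryos (0.08 ± 0.1005). Both genes had their highest value in hypomelanistic 2. *COL18A1*, a basement membrane collagen whose end yields endostatin, had 484, 535 and 475 CPM in hypomelanistic and 514, 543 and 519.6 CPM in wild-type embryos (−0.08 ± 0.0742). Of 10 tested epidermis markers, 6 had a fold change above 0 and 4 below (median 0.04), and their sum was 2872 to 2927 CPM in hypomelanistic and 2804 to 3202 CPM in wild-type embryos. Among them 1 was lower and 1 higher in every hypomelanistic embryo, beside 6.39% and 5.77% of all tested genes.

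The collagen IV chains of basement membranes are arranged head to head in pairs in the corn snake genome, as they are in mammals. *COL4A5* and *COL4A6*, 2261 bases apart on scaffold NW_026844037.1, were the most abundant of them, with 129.9 and 90.4 TPM over all libraries. *COL4A6* had 288, 305 and 287 CPM in hypomelanistic and 287, 296 and 299.5 CPM in wild-type embryos, the narrowest spread of any collagen, with a log2 fold change of −0.00266 ± 0.0616. *COL4A5* had 326, 419 and 364 CPM in hypomelanistic and 353, 378 and 413 CPM in wild-type embryos (−0.04 ± 0.109). Neither gene separated the genotypes.

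*COL4A1* and *COL4A2*, chains present in nearly all basement membranes, overlap by 462 bases at their 5′ ends on scaffold NW_026844025.1. *COL4A1* had 141, 161 and 136.5 CPM in hypomelanistic and 153, 155 and 153 CPM in wild-type embryos (−0.07 ± 0.0749), and *COL4A2* had 156, 181 and 149.6 CPM in hypomelanistic and 168, 186 and 178 CPM in wild-type embryos (−0.13 ± 0.0870). In both genes hypomelanistic 1 and 3 were the lowest of the 6. *COL4A3* and *COL4A4*, known from kidney and 186 bases apart, had at most 21 and 27 counts in any library. Of the 6 tested collagen IV genes, 1 had a fold change above 0 and 5 below (median −0.06). Endothelium markers, from a tissue lined by these membranes, gave 2 above 0 and 6 below (median −0.02; 336 to 364 CPM in hypomelanistic and 333 to 366 CPM in wild-type embryos). Smooth muscle and mural markers gave 1 above 0 and 4 below (median −0.09; 493 to 549 CPM in hypomelanistic and 518 to 540 CPM in wild-type embryos), and Schwann cell markers 2 above 0 and 4 below (median −0.12; 581 to 666 CPM in hypomelanistic and 554 to 659 CPM in wild-type embryos). For melanophore markers, 1 of 7 was above 0 and 6 below (median −0.05; 1678 to 1932 CPM in hypomelanistic and 1745 to 1966 CPM in wild-type embryos). In all of these lists the sums of the genotypes overlapped, and edgeR called no marker. *TYR*, which edgeR called (−2.90 ± 0.115, edgeR adjusted p = 0.000415), is not on the melanophore list. Of the 5 mural markers, 2 were lower in every hypomelanistic embryo and 0 higher, beside 6.39% and 5.77% of all tested genes. These were *CNN1* (17.3 to 20.8 against 24.4 to 28.4 CPM, edgeR adjusted p = 0.646) and *ACTA2* (21.0 to 24.9 against 25.7 to 36.5 CPM, 0.828). *NOTCH3* held most of the mural sum (366 to 419 against 369 to 391 CPM). Of the 8 endothelium markers, 1 was lower (*KDR*) and 1 higher (*EGFL7*) in every hypomelanistic embryo. For Schwann cell and melanophore markers it was 0 in both directions.

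Collagens of cartilage and bone stood out in a single embryo, wild-type 2. *COL10A1*, the network collagen of hypertrophic cartilage, had 1344 counts there, against 9, 9 and 1 counts in the hypomelanistic embryos and 10 and 7 counts in wild-type 1 and 3. *COL9A1*, a fibril-associated chain of cartilage, had 9, 14 and 22 counts in hypomelanistic embryos, against 19, 268 and 13 counts in wild-type embryos. *COL9A3*, its partner, had 10, 29 and 38 counts in hypomelanistic embryos, against 37, 275 and 31 counts in wild-type embryos. All 3 genes were highest in wild-type 2, and the remaining 5 embryos overlapped. With wild-type 2, the log2 fold changes of *COL9A1* and *COL9A3* were −2.86 ± 1.20 and −2.27 ± 0.960 (edgeR adjusted p = 0.828 for both). Without it they were −0.11 ± 0.463 and −0.42 ± 0.530 (edgeR adjusted p = 0.994 and 0.986), so their unadjusted p values rested on that embryo.

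*COL11A2*, a cartilage chain of collagen XI, had 195, 188 and 55 counts in hypomelanistic embryos, against 26, 508 and 91 counts in wild-type embryos. Its log2 fold change was −0.60 ± 0.996 with wild-type 2 and 1.33 ± 0.751 without it (edgeR adjusted p = 0.927 and 0.986). *COL2A1*, the main fibril chain of cartilage, had 54.4, 41.0 and 55.8 CPM in hypomelanistic and 66.5, 89.3 and 41.0 CPM in wild-type embryos. It was again highest in wild-type 2, but by less than *COL10A1* and *COL9A1*. *COL9A2* had 19.6, 17.8 and 14.8 CPM in hypomelanistic embryos, against 25.8, 26.6 and 16.3 CPM in wild-type embryos (−0.40 ± 0.201), and its wild-type 1 and 2 values were nearly equal. *COL8A1*, a short-chain collagen of vessel walls and cornea, had 41, 55 and 45 counts in hypomelanistic and 41, 92 and 58 counts in wild-type embryos.

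Several genes of bone cells were high in the same embryo, but not all of those listed. The matrix genes *IBSP* and *SPP1* had 18.7 and 114 CPM in wild-type 2, against at most 0.460 and 18.7 CPM in any other embryo. *DMP1*, of osteocytes, had 231 counts there and at most 1 elsewhere, and *IFITM5*, of osteoblasts, 103 counts and at most 1 elsewhere. The 10 bone markers summed to 106 to 119 CPM in hypomelanistic embryos and to 118, 270.1 and 125 CPM in wild-type 1, 2 and 3. Of 8 tested, 0 had a fold change above 0 and 8 below (median −0.67). In every hypomelanistic embryo 1 of the 8 was lower (*ALPL*) and 0 higher, beside 6.39% and 5.77% of all tested genes. Cartilage markers were mixed. *COMP*, a cartilage matrix protein, had 5.16 CPM in wild-type 2 and at most 2.28 CPM elsewhere, *HAPLN1*, which links hyaluronan to proteoglycans, 11.5 CPM and at most 7.38 CPM elsewhere, and *CHAD*, chondroadherin, 35 counts and at most 8 elsewhere. The sum of the list, in which *ACAN*, *SOX9* and *SOX6* hold most of the counts, was 79.2 to 85.9 CPM in hypomelanistic embryos and 86.5, 83.7 and 92.4 CPM in wild-type 1, 2 and 3, with 2 of 6 tested above 0 and 4 below (median −0.23). Of the 9 measured cartilage markers, 5 were highest in wild-type 2. There, *ACAN*, the aggrecan gene, was at 22.6 CPM, the lowest of the 6 embryos, *MATN1* had 5 counts and *EPYC* 2. *MATN1* was at 0 in 4 libraries and *EPYC* also in 4.

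**Figure D5:**
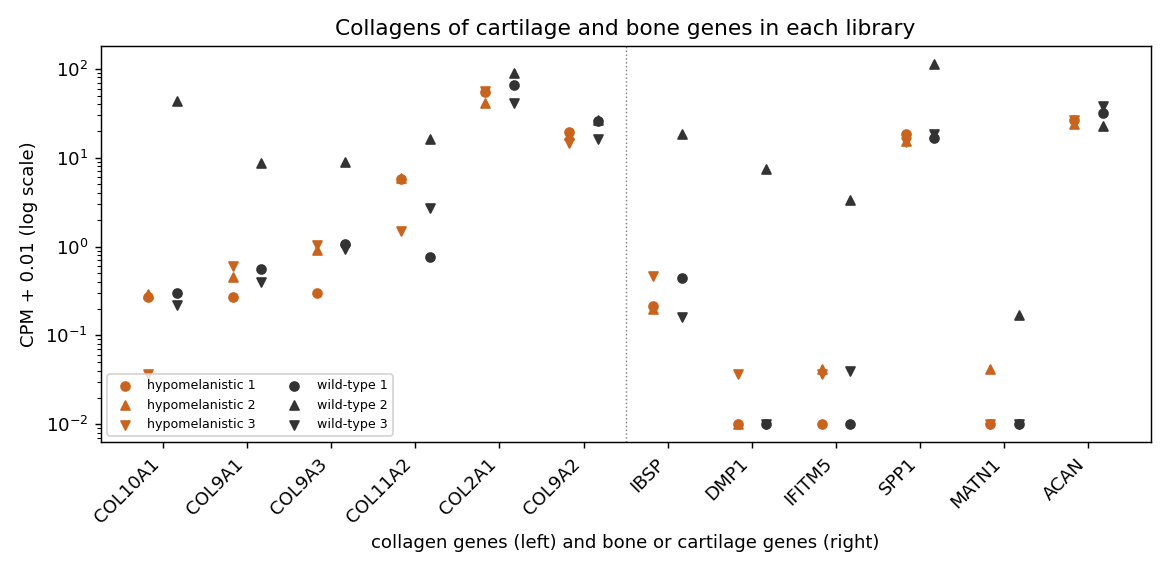
CPM (plus 0.01, log scale) of 6 cartilage collagens and 6 bone or cartilage genes in each embryo, hypomelanistic left of wild-type for each gene. Wild-type 2 (black triangle pointing up) is far above the other 5 embryos for *COL10A1*, *COL9A1*, *COL9A3*, *IBSP*, *DMP1*, *IFITM5* and *SPP1*, but not for *COL9A2* or *ACAN*.

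The -like copies added little to the collagen counts. *COL28A1-like* (LOC117674474), which had the highest mean TPM of them, had 48.9, 50.4 and 95.5 CPM in hypomelanistic and 119, 76.3 and 89.9 CPM in wild-type embryos (−0.55 ± 0.283, edgeR adjusted p = 0.828). Hypomelanistic 3 lay among the wild-type embryos and the other 2 below them. *COL3A1-like* (LOC117660861), which lies inside *FYN* on the same strand, had 46.0, 34.4 and 12.1 CPM in hypomelanistic embryos, against 24.04, 19.4 and 6.49 CPM in wild-type embryos. It differed more between embryos of a genotype than between genotypes (0.89 ± 0.572), and reads of the 2 overlapping genes cannot be told apart. *COL18A1-like* (LOC117665040) had 10, 16 and 23 counts in hypomelanistic and 28, 36 and 24 counts in wild-type libraries, with a margin of 1 count between the nearest embryos (−0.91 ± 0.368, edgeR adjusted p = 0.828). LOC117655601 is named *COL25A1-like* in the count table and *COL23A1* in the annotation of a newer assembly. This transmembrane collagen had 49.9, 55.3 and 49.9 CPM in hypomelanistic and 53.6, 60.5 and 60.4 CPM in wild-type embryos (−0.17 ± 0.0779). It overlaps *HNRNPAB* on the opposite strand, which had 37790 counts over all libraries. As the strand setting is not known, its values are uncertain.

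Copies of *COL6A6-like*, a chain of the beaded filaments of collagen VI, occur in near-identical pairs on scaffolds NW_026844015.1 and NW_026844099.1. The counts of LOC132710202 were 1.028 to 1.036 times those of LOC117656047 in every library, and LOC117656025 and LOC132709591 differed by at most 1 count. The 2 abundant copies had fold changes of 0.13 ± 0.146 each. Values of single copies are therefore uncertain. By the study's account only uniquely mapped pairs were counted, and how near-identical copies then came to such counts was not tested. Of the 7 tested genes of the beaded filament class, 2 had fold changes above 0 and 5 below (median −0.03). The 2 above 0 are the abundant copies, and the other near-identical pair is among the 5 below, so these counts are not all of separate signals. The remaining tested collagens (*COL13A1*, *COL25A1*, *COL23A1-like*, *COL8A2*, *COL28A1*, *COL27A1-like*, *COL22A1-like* and *COL7A1-like*) had fold changes between −0.21 and 0.03, and the genotypes overlapped for each. *COL26A1*, the most abundant of the beaded filament class, had 154, 125 and 130.2 CPM in hypomelanistic and 131, 132 and 147 CPM in wild-type embryos, which interleaved.

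The genes that modify, secrete, process and bind collagen were read from the same fit, and edgeR called none of them. Of 18 genes for chain modification and folding, 6 had fold changes above 0 and 12 below (median −0.08). Their summed level was 5079 to 5229 CPM in hypomelanistic and 5376 to 5492 CPM in wild-type embryos, which did not overlap. Most of it came from *P4HB* (1736 to 1969 CPM in hypomelanistic, 1944.5 to 2173 CPM in wild-type embryos) and *SERPINH1* (941 to 1120 and 1054 to 1197 CPM). Both genes overlapped between the genotypes. Of the 18 genes, 3 were lower and 2 higher in every hypomelanistic embryo, beside 6.39% and 5.77% of all tested genes. *P3H3*, which encodes a prolyl hydroxylase family protein of the endoplasmic reticulum, had 119.5, 124 and 117 CPM in hypomelanistic embryos, against 142, 140.5 and 152 CPM in wild-type embryos (−0.27 ± 0.0601, edgeR adjusted p = 0.692). *PLOD1*, a lysyl hydroxylase, had 148, 139.6 and 159 CPM in hypomelanistic embryos, against 129, 132 and 135 CPM in wild-type embryos (0.17 ± 0.0668). The genotypes were apart for both, in opposite directions, and neither gene passed the adjusted threshold. *TMEM38B*, an ion channel of the endoplasmic reticulum, and *P4HA3*, a prolyl hydroxylase subunit, had fold changes of −0.19 ± 0.0733 and 0.24 ± 0.111.

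Of 8 genes for procollagen secretion, 2 had fold changes above 0 and 6 below (median −0.12), and their sums overlapped (815 to 884 CPM in hypomelanistic and 845 to 909.6 CPM in wild-type embryos). *MIA3*, the receptor that loads procollagen into carriers at the exit sites of the endoplasmic reticulum, had 62.6, 66.3 and 64.0 CPM in hypomelanistic embryos, against 70.9, 82.7 and 75.7 CPM in wild-type embryos. All hypomelanistic embryos were the lower ones (−0.25 ± 0.0728, edgeR adjusted p = 0.828). Of the 8 genes, 2 were lower (*MIA3* and *MIA2*) and 1 higher (*KDELR2*) in every hypomelanistic embryo, beside 6.39% and 5.77% of all tested genes. *KDELR2* had 191, 208 and 186 CPM in hypomelanistic embryos, against 170, 177 and 184 CPM in wild-type embryos (0.14 ± 0.0689, edgeR adjusted p = 0.828). Of 13 genes for procollagen processing and crosslinking, 6 had fold changes above 0 and 7 below (median −0.06), and their sums overlapped (10762 to 14757 CPM in hypomelanistic and 13356 to 14437 CPM in wild-type embryos). *SPARC* held most of these sums (9352 to 13105 CPM in hypomelanistic and 11874 to 12707 CPM in wild-type embryos), so they say little of the other genes. *ADAMTS2*, the procollagen N-proteinase, had 343, 420.4 and 356 CPM in hypomelanistic embryos, against 418, 487 and 456 CPM in wild-type embryos (−0.28 ± 0.101, edgeR adjusted p = 0.828). The lysyl oxidase genes *LOXL4*, *LOXL2* and *LOX* had fold changes of −0.71 ± 0.247, −0.32 ± 0.130 and −0.19 ± 0.128, and their genotypes overlapped, as they did for *ADAMTS2*. The other lysyl oxidases, *LOXL1* and *LOXL3*, had fold changes of 0.29 ± 0.269 and 0.00 ± 0.0694. Of 8 collagen receptors, 3 had fold changes above 0 and 5 below (median −0.10), and their sums overlapped (753 to 1012 CPM in hypomelanistic and 827 to 915 CPM in wild-type embryos). *DDR1*, the discoidin domain receptor of epithelial cells, had 125, 126 and 116 CPM in hypomelanistic embryos, against 106, 109.5 and 103 CPM in wild-type embryos (0.20 ± 0.0608, edgeR adjusted p = 0.828). *DDR2*, its counterpart in connective tissue, had a fold change of −0.19 ± 0.101.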

How the data were processed

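The 6 libraries were stranded poly(A) libraries of single embryos. By the methods of the study and the notes of the submitters, STAR 2.7.10b mapped the pairs to the CU assembly, and featureCounts (Subread 2.0.6) counted those with a unique position in each gene. The table deposited by the authors holds raw counts per gene with no normalization, coordinates and an exon length. The strand setting, not given in the sources used here, leaves overlapping genes uncertain. Of 25735 lines, 4 broken ones (*DST* and *MACF1*) were left out. LOC numbers were looked up in a newer assembly (ASM5975653v1) for names only, which held 8663 of 11873. *COL6A1*, *COL6A2* and *COL6A3* were not found by the rule and not analysed here.

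Genes kept by filterByExpr (17025) were tested in R 4.3.3 with the quasi-likelihood test of edgeR 4.0.16 (TMM, no covariate, Benjamini-Hochberg over all tested genes at 0.05). The fit was also run on simulated counts that held no effect of sex, and no statement of power rests on that run. The SE is the absolute fold change divided by the root of F, and means are given ± SD. Ribosomal RNA was taken as 28 genes by annotation and name. Ratios of partner chains were tested by exact permutation (scipy 1.17.1). Alternatives were DESeq2 1.42.0 (the study's tool), its size factors within edgeR, limma-voom (limma 3.58.1), no filter on low counts, the replicate number as a block, no ribosomal RNA genes, and each library left out in turn. The share without *COL1A1* and *COL1A2*, the ratios of *COL4A5* to *COL4A6* and of *COL5A1* to *COL5A2* (in place of collagen VI) and the summed *COL6A6-like* copies were added after seeing the data.

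The members and gene lists were chosen with earlier results of these data known. Values per library were to be given for collagens past the threshold, the 12 with the highest TPM, the 8 with the smallest p and partner chains, and up to 4 genes of each list by smallest p. Other collagens, the bone and cartilage genes named for wild-type 2, *LOXL1* and *LOXL3* were chosen after their values were seen. So were the genes named for holding most or the largest part of a summed level. The labels give no sex. The study names sex as the main factor that separated these samples in its principal component analysis. Sex was not used here, and its part in any value, spread or overlap was not tested.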

Additional observations from a re-analysis of the deposited data

How the results depend on the processing

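The number of genes called by edgeR was 4, and it was 85 with DESeq2, 1 with the replicate number as a block and 2 to 10 when each library was left out in turn (10 without hypomelanistic 1, 2 without wild-type 2 or wild-type 3). DESeq2 estimates the spread of each gene differently, but the cause of its higher count was not tested. For collagens the count was 1 with DESeq2 (*COL19A1*) and 0 under every other alternative run, the block included. The embryos share only a number (correlations of −0.0842, 0.113 and −0.00586 between those with the same number), so the block does not rest on the design. The difference in the collagen share stayed below 0, at −0.851 percentage points on TMM-scaled library sizes and −1.97 to −0.858 when a library was left out. It was −0.603 per kilobase (means of 4.58% in hypomelanistic and 5.18% in wild-type embryos). Without *COL1A1* and *COL1A2* it was −0.531 (3.18% and 3.71%). These last 2 differences stand on smaller shares, so their points do not compare directly with the others. Of the 48 tested collagens, 27 kept the sign of their fold change in 12 alternatives and 21 did not, among them *COL11A2* (−1.13 to 1.33). Of the 24 chosen by level, p or partner, 18 kept it. The log2 fold change of *COL4A6* (−0.00266) turned to 9.7e-05 with DESeq2 and to 0.0021 without ribosomal RNA genes, and lay between −0.0315 and 0.0148 when a library was left out. Among those 24, the sign also turned when single libraries were left out for *COL1A1* (−0.0709 to 0.0413), *COL17A1* (−0.0544 to 0.0448), *COL5A1* (−0.0982 to 0.10), *COL7A1* (−0.0257 to 0.14) and *COL4A5* (−0.14 to 0.0391), all of which lay within their SE of 0. The cause was not tested. The log2 difference of the ratio of *COL4A5* to *COL4A6* ranged from −0.11 to 0.03. Summing near-identical *COL6A6-like* copies left their fold changes at 0.13 and −0.06. Chains under about 40 counts in every library (20 of 63 genes) are too shallow to show a moderate difference.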
